A study of Mus musculus with 12 samples.

Results

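The genes described here encode the oxidative phosphorylation machinery that the nucleus, and not mitochondrial DNA, supplies. They were taken from the array by symbol: every name starting with Nduf, Uqcr, Atp5, Cox4, Cox5, Cox6, Cox7 or Cox8, together with Sdha, Sdhb, Sdhc, Sdhd, Cyc1 and Cycs. The rule found 91 genes among the 19938 genes tested, each read through 1 probe set, the one with the highest mean over the 12 arrays. They comprise 6 core and 28 accessory subunits of complex I, 7 complex I assembly factors, all 4 subunits of complex II, 9 of complex III, cytochrome c, 11 of complex IV, 8 tissue-restricted isoforms and 17 of ATP synthase. The assembly factors Ndufaf1 to Ndufaf7 carry the prefix but are not part of the mature enzyme, so the set holds more than subunits. Genes of the rule without a probe set of a single symbol, such as Cox7c and Ndufb4, were not analysed here.

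RNA came from cells sorted out of the skin of untreated, wild-type C57BL/6 mice kept under specific-pathogen-free conditions. Melanophages, which are macrophages that hold melanin, and other macrophages were each divided by surface MHC-II into a negative and a positive class, which gives 4 groups of 3 arrays. All groups shared a CD11b+, CD24-, CD64+, CCR2-, Ly6C- gate, and the labels contradict each other on the side scatter of the macrophages, so side scatter defined no group here. No label ties the 3 arrays of a group to different mice, and every p-value therefore reflects the spread among these samples alone, part of which may be technical. In such bulk samples, fewer cells of a type and less RNA per cell cannot be told apart.

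The respiratory chain sits in the inner mitochondrial membrane. Complex I takes electrons from NADH and complex II from succinate, ubiquinone carries them to complex III, cytochrome c carries them on to complex IV, and oxygen accepts them there, while ATP synthase uses the proton gradient that complexes I, III and IV build. Macrophages are known to change the balance between this pathway and glycolysis when they are activated, and complexes I and II are sources of reactive oxygen species in them.

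All values are log2 expression values. Array medians lay between 2.97 and 3.08, and the mean of 6 members stayed under 4.08 (the highest array median plus 1) in every group: Ndufaf1, Ndufaf6, Cox7b2, Cox8b, Cox8c and Ndufa4l2. The 8 matched of 9 defining macrophage markers were above that limit in every group, with mean levels of 8.37 to 8.66. Keratinocyte, adipocyte and endothelial markers were all below it, and 1 of 6 melanocyte markers (Mitf) and 1 of 5 fibroblast markers (Dcn) were above it. Of the mast cell markers, Mcpt4 had group means of 5.61 to 6.78 and Cpa3 of 3.67 to 5.54, both lowest in MHC-II-positive macrophages. There, the Langerhans cell gene Cd207 averaged 5.17, and it did not pass 3.17 in any other group. The neutrophil gene S100a8 had group means of 5.86 and 6.93 in MHC-II-negative and MHC-II-positive melanophages and of 4.88 and 5.53 in the corresponding macrophages, and the other 3 neutrophil markers were below the limit. Of 3 matched T cell and innate lymphoid markers, Thy1 alone passed it, at 4.43 in MHC-II-negative macrophages. The part of these other cell types in the results below was not tested. Replicate 1 of the MHC-II-negative macrophages and replicate 3 of the MHC-II-positive macrophages stood farthest from their group mates, with an SD of the difference over all genes of 0.406 and 0.356, against 0.241 to 0.311 for the other 10 arrays.

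**Figure D1:**
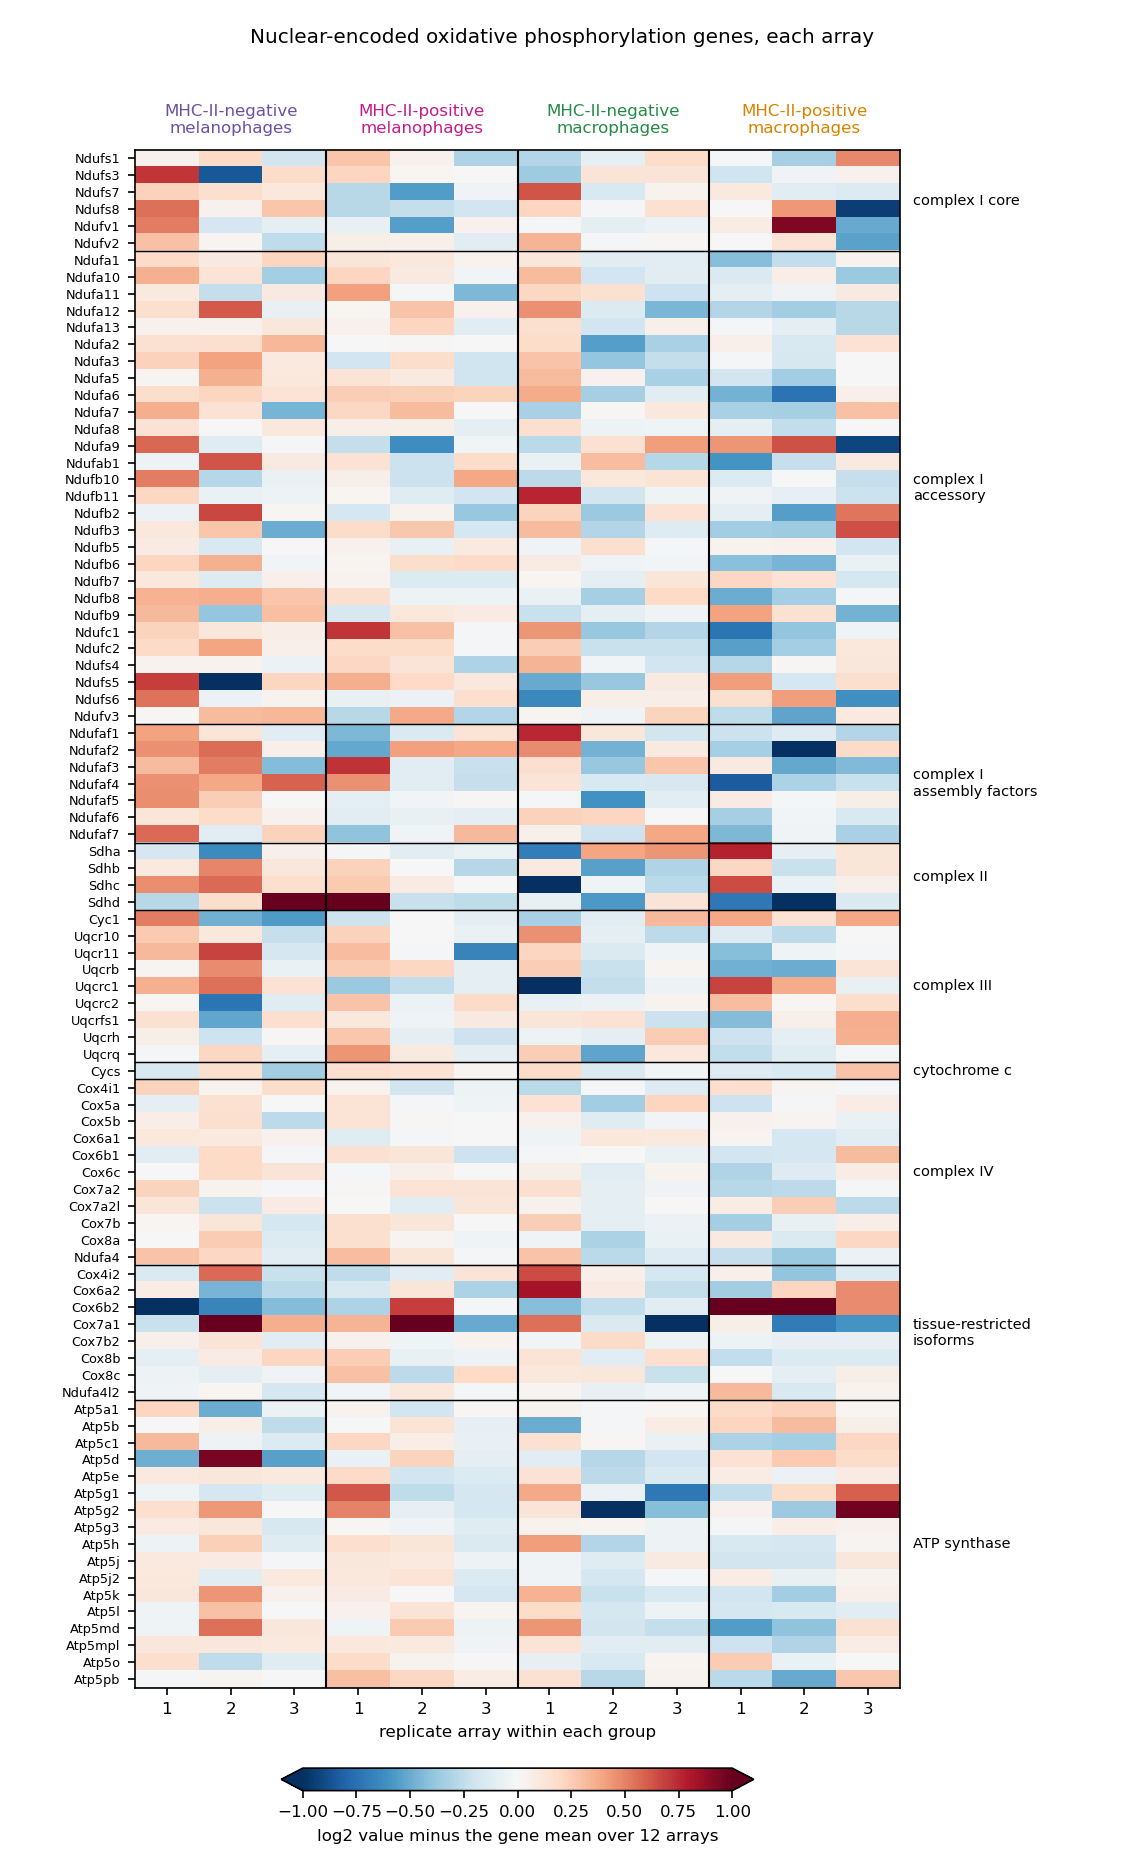
Log2 value of each of the 91 genes minus its own mean over the 12 arrays (colour, cut at -1 and 1), with genes as rows by complex and arrays as columns by group. No complex separates the 4 groups as a block, and Cox6b2 is the row whose MHC-II-positive arrays all exceed the MHC-II-negative arrays of the same cell kind and which passed the test.

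Melanophages and macrophages were compared with limma, averaged over the 2 MHC-II classes. No member was called (p under 0.05 after Benjamini-Hochberg adjustment across the whole array), against 24 of all 19938 genes, or 0.12%. At an unadjusted p under 0.05, 11 members were higher and 1 was lower in melanophages, where all genes gave 4.11% higher and 3.42% lower. In either direction this was 13.2% of members, against 11.4% of the genes at or above the median gene. No member had melanophage arrays all higher in the negative class and again in the positive class (0.707% of all genes did), or all lower in each (0.456%). The estimates leaned to the side of melanophages. They were above 0 for 68 of 91 members (74.7%), compared with 54.8% of all genes and 49.1% of the genes at or above the median gene, and the median difference was 0.09 against 0.01 for all genes. For 86 of 91 members the 95% interval of the difference lay between -1 and 1, so a change of 2-fold or more was outside the interval, and for 58 it lay between -0.5 and 0.5. The 5 members whose interval reached 1 in size were Cox6b2, Cox7a1, Ndufaf2, Sdhc and Sdhd.

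**Figure D2:**
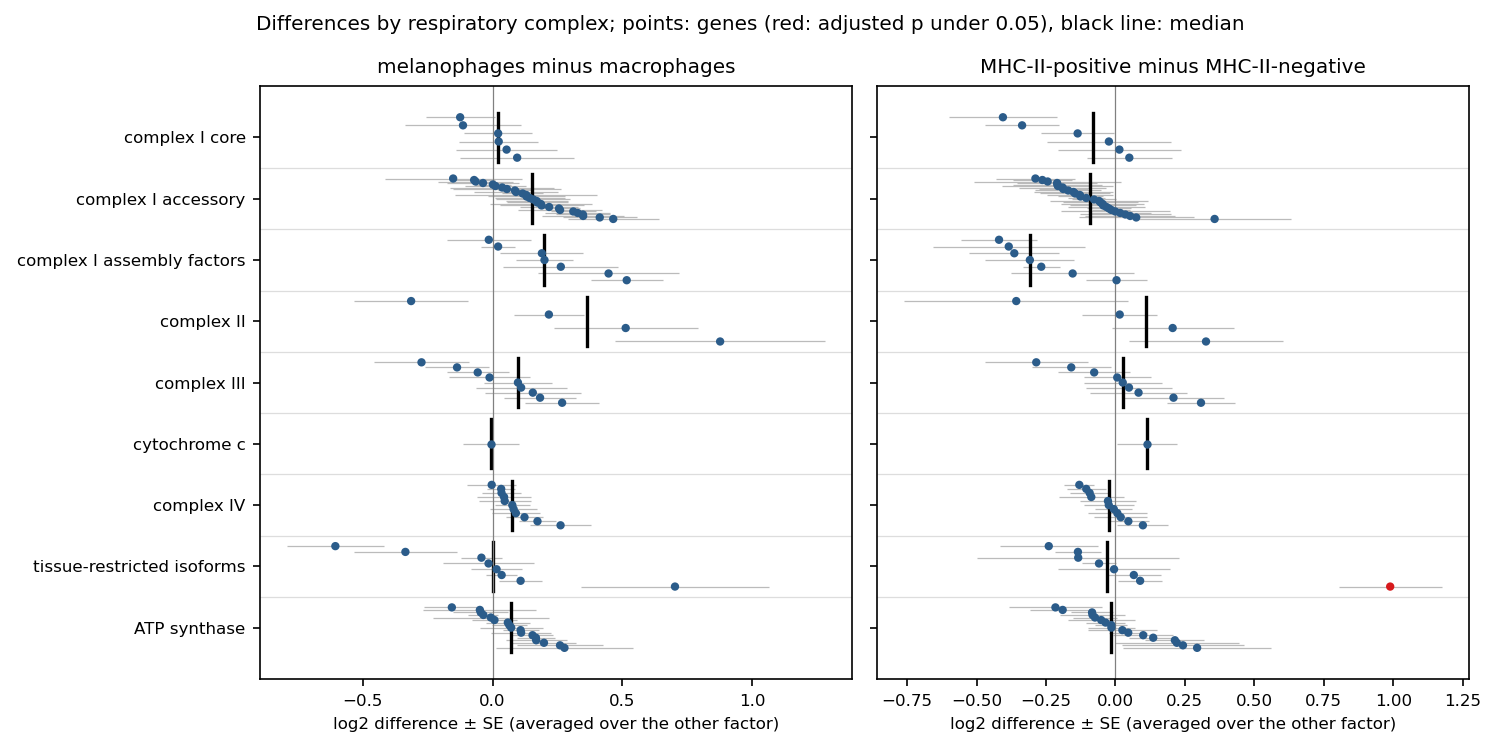
Log2 difference of each member with its SE, by complex, for melanophages minus macrophages (left) and MHC-II-positive minus MHC-II-negative cells (right), each averaged over the other factor. The black line is the median of a complex and the red point is Cox6b2, at 0.99, the member with an adjusted p under 0.05.

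Complex I is the largest respiratory enzyme, with a core that carries out electron transfer and proton pumping and a shell of accessory subunits. Of the 28 accessory subunits 24 had estimates above 0, with a median of 0.15 and 7 at an unadjusted p under 0.05, all higher in melanophages. Among the 6 core subunits 4 were above 0, and their median was 0.02, which was -0.11 without replicate 3 of the MHC-II-positive macrophages. The accessory subunit Ndufb6 read 9.73, 9.87 and 9.49 in MHC-II-negative melanophages, 9.54, 9.69 and 9.71 in MHC-II-positive melanophages, 9.60, 9.48 and 9.49 in MHC-II-negative macrophages and 9.10, 9.05 and 9.45 in MHC-II-positive macrophages. The melanophage arrays were all above the macrophage arrays in the MHC-II-positive class and overlapped them in the negative class. The averaged difference was 0.31 ± 0.0877 (SE, limma adjusted p = 0.366), or 1.24-fold.

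Ndufa6, another accessory subunit, was nearly the same on all 6 melanophage arrays, from 8.96 to 9.07. The macrophage arrays spread more widely, at 9.20, 8.49 and 8.71 in the MHC-II-negative and 8.35, 8.09 and 8.87 in the MHC-II-positive group. The 2 farthest arrays of the series held the highest macrophage value of each group, 9.20 and 8.87. The averaged difference was 0.41 ± 0.142 (limma adjusted p = 0.497), and without those 2 arrays it was 0.62 ± 0.0702 with a limma adjusted p of 0.0172. Leaving out the highest value of each macrophage group had to raise the Ndufa6 difference. The arrays were also picked from these same data, so this adjusted p is not independent evidence. Ndufa1 went the same way, from 0.26 ± 0.0800 (adjusted p = 0.429) to 0.36 ± 0.0577 (adjusted p = 0.0444), and these were the only members called in that smaller fit, where all genes gave 117 calls.

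Ndufb8, an accessory subunit of the membrane arm, read 8.71, 8.73 and 8.64 in MHC-II-negative melanophages, 8.52, 8.31 and 8.31 in MHC-II-positive melanophages, 8.30, 8.03 and 8.56 in MHC-II-negative macrophages and 7.87, 8.02 and 8.36 in MHC-II-positive macrophages. Its negative-class melanophages were all above the macrophages of that class, and the positive-class groups overlapped. The averaged difference was 0.35 ± 0.105 (limma adjusted p = 0.401). Ndufc1 (0.46 ± 0.176) and Ndufc2 (0.33 ± 0.126) were further accessory subunits with estimates in this direction, with limma adjusted p of 0.567 and 0.572. On the other side, Ndufb7 was at -0.07 ± 0.0804 and the iron-sulfur core subunit Ndufs7 at -0.12 ± 0.133.

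Assembly factors build complex I from its modules and leave it afterwards. Of 7, 6 had estimates above 0 and the median was 0.20. Ndufaf4 had the smallest p of all members: it read 6.86, 6.79 and 6.99 in MHC-II-negative melanophages, 6.85, 6.29 and 6.17 in MHC-II-positive melanophages, 6.53, 6.25 and 6.24 in MHC-II-negative macrophages and 5.57, 6.08 and 6.18 in MHC-II-positive macrophages. In the negative class the melanophages were all higher, and in the positive class replicate 3 of the melanophages lay just below replicate 3 of the macrophages. The averaged difference of 0.52 ± 0.138 corresponded to 1.43-fold and had a limma adjusted p of 0.320. The other assembly factors had estimates from -0.01 (Ndufaf1, near the array medians) to 0.45 ± 0.273 (Ndufaf2, adjusted p = 0.769).

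Complex II, succinate dehydrogenase, also belongs to the Krebs cycle and holds no mitochondrially encoded subunit. The flavoprotein Sdha (-0.31 ± 0.220) and the iron-sulfur protein Sdhb (0.22 ± 0.136) had estimates of opposite sign, with limma adjusted p of 0.806 and 0.778. Of the membrane anchors, Sdhd read 6.18, 6.64 and 8.15 in MHC-II-negative melanophages, 7.98, 6.23 and 6.21 in MHC-II-positive melanophages, 6.38, 5.88 and 6.59 in MHC-II-negative macrophages and 5.75, 5.20 and 6.32 in MHC-II-positive macrophages. A single melanophage array in each class, 8.15 and 7.98, stood well above its group mates, and the groups overlapped in both classes. The difference was therefore both the largest among members and imprecise, at 0.88 ± 0.404 (95% interval -0.02 to 1.77, limma adjusted p = 0.679).

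Sdhc, the other anchor, read 7.78, 7.88 and 7.49 in MHC-II-negative melanophages and 5.46, 7.27 and 7.05 in MHC-II-negative macrophages. These groups did not overlap, but the value of 5.46 belonged to one of the 2 far arrays. The difference in that class was 1.12 ± 0.393 (limma adjusted p = 0.715) and 0.56 without that array. In the positive class the values were 7.58, 7.40 and 7.32 in melanophages and 7.97, 7.25 and 7.37 in macrophages, which overlapped.

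Complex III passes electrons from ubiquinol to cytochrome c. Its 9 genes were divided, with 5 estimates above 0 and a median of 0.10 (0.0146 to 0.161 on leaving out each array). Cyc1, cytochrome c1, was at -0.27 ± 0.183 (limma adjusted p = 0.795) and the core protein Uqcrc2 at -0.14 ± 0.123 (adjusted p = 0.857), while Uqcrb had the highest estimate, 0.27 ± 0.143 (adjusted p = 0.726). For Cyc1 the positive-class macrophages (7.09, 6.85 and 7.09) were all above the melanophages of that class (6.50, 6.71 and 6.62). In the negative class the groups overlapped, and melanophage replicate 1, at 7.22, exceeded every macrophage array. Cytochrome c itself, Cycs, differed by -0.00492 ± 0.108 (95% interval -0.244 to 0.234), and its 3 probe sets did not have the same sign.

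Complex IV, cytochrome c oxidase, reduces oxygen. Of its 11 generally expressed members, counting Ndufa4 and the supercomplex factor Cox7a2l, 10 had estimates above 0, with a small median of 0.08 and a range from -0.00343 to 0.26. The upper end was Ndufa4 (0.26 ± 0.116, limma adjusted p = 0.655), followed by Cox7a2 (0.17 ± 0.0719, adjusted p = 0.629). Cox7a2 read 9.35, 9.47 and 9.47 in MHC-II-positive melanophages, all above 9.06, 9.07 and 9.31 in the macrophages of that class, and the negative-class groups overlapped.

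Several complex IV subunits have a second gene whose product is restricted to muscle, testis, lung or other tissues, and these isoforms were read apart. Their 8 estimates split evenly, with 4 above 0 and a median of -0.0001. The testis isoform Cox6b2 was lower in melanophages by the estimate, -0.61 ± 0.186 (1.52-fold, limma adjusted p = 0.420), and its ubiquitous counterpart Cox6b1 was at 0.04 ± 0.105. The heart and muscle isoforms Cox6a2 (-0.34 ± 0.200) and Cox7a1 (0.70 ± 0.364) pointed in opposite directions, with adjusted p of 0.762 and 0.718. Cox7a1 values ran from 4.65 to 6.47 in MHC-II-negative macrophages alone, so its replicates differed by more than its estimate. Of the muscle markers, Acta1 and Ckm had group means of 4.02 to 4.20 and 4.47 to 4.75, and Myh4, Tnnt3 and Mylpf stayed below 4.08 in every group.

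ATP synthase turns the proton gradient into ATP through a catalytic head and a rotating membrane ring. Of 17 genes 12 had estimates above 0, and the median was 0.07. Atp5mpl had the smallest p, with 0.17 ± 0.0746 (limma adjusted p = 0.663), and the largest estimate was that of the ring subunit c gene Atp5g2, 0.28 ± 0.265, which was 0.11 without replicate 2 of the MHC-II-negative macrophages and 0.46 without replicate 3 of the MHC-II-positive macrophages. The catalytic head subunits Atp5a1 (-0.16 ± 0.107) and Atp5b (-0.05 ± 0.106) were on the other side of 0. The genes Atp5g1, Atp5g2 and Atp5g3 encode the same mature subunit c, and their estimates were -0.05 ± 0.218, 0.28 ± 0.265 and -0.04 ± 0.0581, each within about 1 SE of 0.

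Within the MHC-II-negative class no member was called, where 0.00502% of all genes were, and 66 of 91 estimates were above 0 (52.4% of all genes). The melanophage and macrophage arrays did not overlap for 8 members: Uqcrc1, Sdhc, Ndufaf4, Sdhb, Ndufaf5, Ndufb8 and Cox4i1 were higher and Cox6b2 lower in melanophages, where 5.57% of all genes did not overlap with melanophages higher and 3.91% with melanophages lower. Within the MHC-II-positive class no member was called either (0.015% of all genes), and 59 of 91 estimates were above 0 (54.2% of all genes). There 12 members did not overlap: Ndufc1, Ndufa6, Ndufb6, Ndufa12, Ndufa4, Ndufa1, Cox7a2, Atp5l, Cox8b and Cox7b2 were higher (7.51% of all genes) and Uqcrc1 and Cyc1 lower in melanophages (4.91%). At an unadjusted p under 0.05 the negative class held 8 higher members (3.1% of all genes) and 0 lower (2.54%), and the positive class 6 higher (3.26%) and 2 lower (3.04%). In either direction this was 8.79% of members in each class. Of the genes at or above the median gene, it was 8.58% in the negative and 9.3% in the positive class.

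MHC-II-positive cells were compared with MHC-II-negative cells in the same fit, averaged over the 2 cell kinds. Cox6b2 was the only member called, which makes 1 of 91 beside 0.762% of all genes (152 genes). Of the 9969 genes at or above the median gene, 121 were called higher and 25 lower, so members were not called more often than such genes. Cox6b2 read 3.60, 4.03 and 4.26 in MHC-II-negative melanophages, 4.38, 5.39 and 4.68 in MHC-II-positive melanophages, 4.27, 4.45 and 4.58 in MHC-II-negative macrophages and 5.71, 5.80 and 5.17 in MHC-II-positive macrophages. In both cell kinds all 3 MHC-II-positive arrays were above all 3 MHC-II-negative arrays. That order held for 1 of 91 members, beside 1.11% of all genes and 202 of the 9969 genes at or above the median gene. Cox6b2 rose by 0.99 ± 0.186 on the log2 scale, or 1.98-fold, with a 95% interval of 0.58 to 1.40. The limma p was 0.000291 and the adjusted p 0.0412. The mean of the MHC-II-negative melanophages, 3.96, lay under the limit of 4.08. Whether the rise differed between the cell kinds could not be told at this precision, with an interaction of -0.27 ± 0.372 and a 95% interval of -1.10 to 0.55.

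The size of the Cox6b2 difference was steadier than its call. It was 0.85 ± 0.263 in melanophages (limma adjusted p = 0.515) and 1.13 ± 0.263 in macrophages (adjusted p = 0.151) taken alone. Under 23 other settings the averaged value stayed between 0.85 and 1.10, with adjusted p from 0.0154 to 0.102, and it was called in 12 of them. It was not called without replicate 1, 2 or 3 of the MHC-II-negative melanophages, 2 or 3 of the MHC-II-positive melanophages, 1, 2 or 3 of the MHC-II-negative macrophages, or 1 or 2 of the MHC-II-positive macrophages. Without the far macrophage arrays its adjusted p was 0.0654. Of the 5 dendritic cell markers only Cd207 passed 4.08, in MHC-II-positive macrophages alone. The neutrophil gene S100a8 was higher in the MHC-II-positive group of both cell kinds by its group means, given above. The other neutrophil markers, S100a9, Ly6g and Mpo, stayed below 4.08 and were lower in that group of both cell kinds. The mast cell genes Cpa3 and Mcpt4 were lower there as well. The part of these cells in the Cox6b2 difference was not tested. Genes next to Cox6b2 in RefSeq order did not overlap it, and those measured had differences of 0.12 ± 0.0639 (Kmt5c, before it) and -0.00176 ± 0.0529 (Fam71e2, after it). Their means over the 12 arrays, 3.01 and 2.42, were near or below the array medians. A change of these neighbours might therefore not have been visible.

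The 250 bases before the RefSeq start of Cox6b2 and of Cox6b1 are shown because these paralogues encode alternatives for the same position in complex IV, and only Cox6b2 was called. Cox6b1 had a class difference of 0.00697 ± 0.105 (limma adjusted p = 0.990), and the difference between the paralogues was not tested. The windows are on GRCm38.p6, at chr7:4753095-4753344 (minus strand) for Cox6b2 and chr7:30626115-30626364 (minus strand) for Cox6b1. Capitals mark a match to the ETS factor motif CCGGAAG or its reverse complement, which Cox6b1 holds and the Cox6b2 window does not.
Cox6b2: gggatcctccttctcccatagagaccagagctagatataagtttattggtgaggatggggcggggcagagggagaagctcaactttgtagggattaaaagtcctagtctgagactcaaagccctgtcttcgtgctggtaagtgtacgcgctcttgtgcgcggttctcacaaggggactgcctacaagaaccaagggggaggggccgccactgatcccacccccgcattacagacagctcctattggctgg
Cox6b1: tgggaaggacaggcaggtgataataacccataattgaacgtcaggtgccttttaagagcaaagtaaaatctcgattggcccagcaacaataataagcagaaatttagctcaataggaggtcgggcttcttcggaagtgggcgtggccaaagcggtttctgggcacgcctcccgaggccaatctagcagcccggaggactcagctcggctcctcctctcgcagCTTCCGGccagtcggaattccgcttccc

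Apart from Cox6b2, no member was called between the MHC-II classes. Estimates were above 0 for 33 of 91 members (36.3%) against 40.2% of all genes, with medians of -0.04 and -0.02. Among genes at or above the median gene, which include 88 of the members, 49.6% were above 0 and the median was -0.0015. At an unadjusted p under 0.05 there were 2 higher members, Cox6b2 included, and 6 lower (4.6% and 4.62% of all genes). For 89 members the 95% interval lay between -1 and 1, with Cox6b2 and Sdhd as exceptions. Complex I accessory subunits leaned to the MHC-II-negative side, with 5 of 28 above 0 and a median of -0.09, as did the assembly factors, with 1 of 7 above 0 and a median of -0.31. Complexes III (6 of 9 above 0) and II (3 of 4) had medians of 0.03 and 0.11, and that of complex III was -0.05 without replicate 1 of the MHC-II-positive melanophages.

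Ndufaf6 was the member with the next smallest p. It read 3.33, 3.40 and 3.26 in MHC-II-negative melanophages, 3.11, 3.14 and 3.12 in MHC-II-positive melanophages, 3.45, 3.43 and 3.22 in MHC-II-negative macrophages and 2.88, 3.19 and 3.06 in MHC-II-positive macrophages. The positive arrays were below the negative ones in both cell kinds, as for 0.762% of all genes, but all of these values were close to the array medians. The difference was -0.27 ± 0.0660 (limma adjusted p = 0.141). Ndufaf4 was at -0.42 ± 0.138 (adjusted p = 0.332), Ndufs7 at -0.34 ± 0.133 (adjusted p = 0.454), Ndufb8 at -0.26 ± 0.105 (adjusted p = 0.456) and the core subunit Ndufs8 at -0.41 ± 0.195 (adjusted p = 0.575). The complex IV subunit Cox6a1 was at -0.13 ± 0.0535 (limma adjusted p = 0.479) and Ndufaf1 at -0.36 ± 0.162 (adjusted p = 0.535).

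In the other direction, the complex III core protein Uqcrc2 was at 0.31 ± 0.123 (limma adjusted p = 0.459) and the catalytic ATP synthase subunit Atp5b at 0.21 ± 0.106 (adjusted p = 0.594). Uqcrc2 read 7.83, 7.08 and 7.69 in MHC-II-negative and 8.10, 7.75 and 8.01 in MHC-II-positive melanophages, with an overlap through the value of 7.75. In macrophages it read 7.74, 7.75 and 7.85 in the negative and 8.12, 7.83 and 7.99 in the positive group, again overlapping. Another ATP synthase subunit, Atp5d, was at 0.22 ± 0.223. It became the only member called, at 0.46 ± 0.0726 (limma adjusted p = 0.0241), when MHC-II-negative melanophages replicate 2 was left out. That array read 7.34, against 5.90 and 5.85 for its group mates. Within melanophages and within macrophages no member was called (0.211% and 0.341% of all genes). Arrays of the MHC-II classes did not overlap for 3 members higher and 7 lower in melanophages and 3 higher and 4 lower in macrophages, with backgrounds of 5.12% and 7.13%, and of 4.96% and 7.07%.

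Whether the cell kinds differed differently in the 2 MHC-II classes was tested by the interaction. No member and no other gene was called by limma (0% of 19938), and at an unadjusted p under 0.05 there were 3 members with values below 0 and 0 above it, against 2.2% and 1.92% of all genes (820 genes together). In either direction this was 3.3% of members, against 5.94% of the genes at or above the median gene. Uqcrc1, a core protein of complex III, read 5.09, 5.29 and 4.88 in MHC-II-negative melanophages and 3.73, 4.50 and 4.69 in MHC-II-negative macrophages. In the positive class it read 4.36, 4.49 and 4.64 in melanophages and 5.41, 5.11 and 4.67 in macrophages. Melanophages were above macrophages on all arrays of the negative class and below them on all arrays of the positive class, by a margin of 4.64 to 4.67 in the latter. Of all genes, 0.386% had this crossed order, and no other member did. The macrophage value of 3.73 belonged to one of the 2 far arrays and lay under the limit of 4.08.

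The differences of Uqcrc1 were 0.78 ± 0.248 in the negative class (limma adjusted p = 0.667) and -0.56 ± 0.248 in the positive class (adjusted p = 0.791). The interaction was -1.35 ± 0.351 (95% interval -2.12 to -0.57), with a limma p of 0.00301 and an adjusted p that rounds to 1.0, so the crossing did not pass the test over all genes. Its value was -1.06 when replicate 1 of the MHC-II-negative macrophages was left out, and -1.55 when replicate 3 of the positive ones was. Cox4i1, the ubiquitous complex IV subunit IV, had an interaction of -0.41 ± 0.133, with a limma p of 0.0106. That of the assembly factor Ndufaf5 was -0.56 ± 0.217, with a limma p of 0.0277, and both adjusted p round to 1.0 as well. Cox4i1 read 9.51, 9.32 and 9.47 in MHC-II-negative melanophages, 9.02, 9.27 and 9.16 in MHC-II-negative macrophages, 9.33, 9.10 and 9.24 in MHC-II-positive melanophages and 9.46, 9.32 and 9.28 in MHC-II-positive macrophages. Melanophages and macrophages were free of overlap in the negative class and overlapped in the positive class, and the MHC-II-positive macrophages were all above the negative ones.

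**Figure D3:**
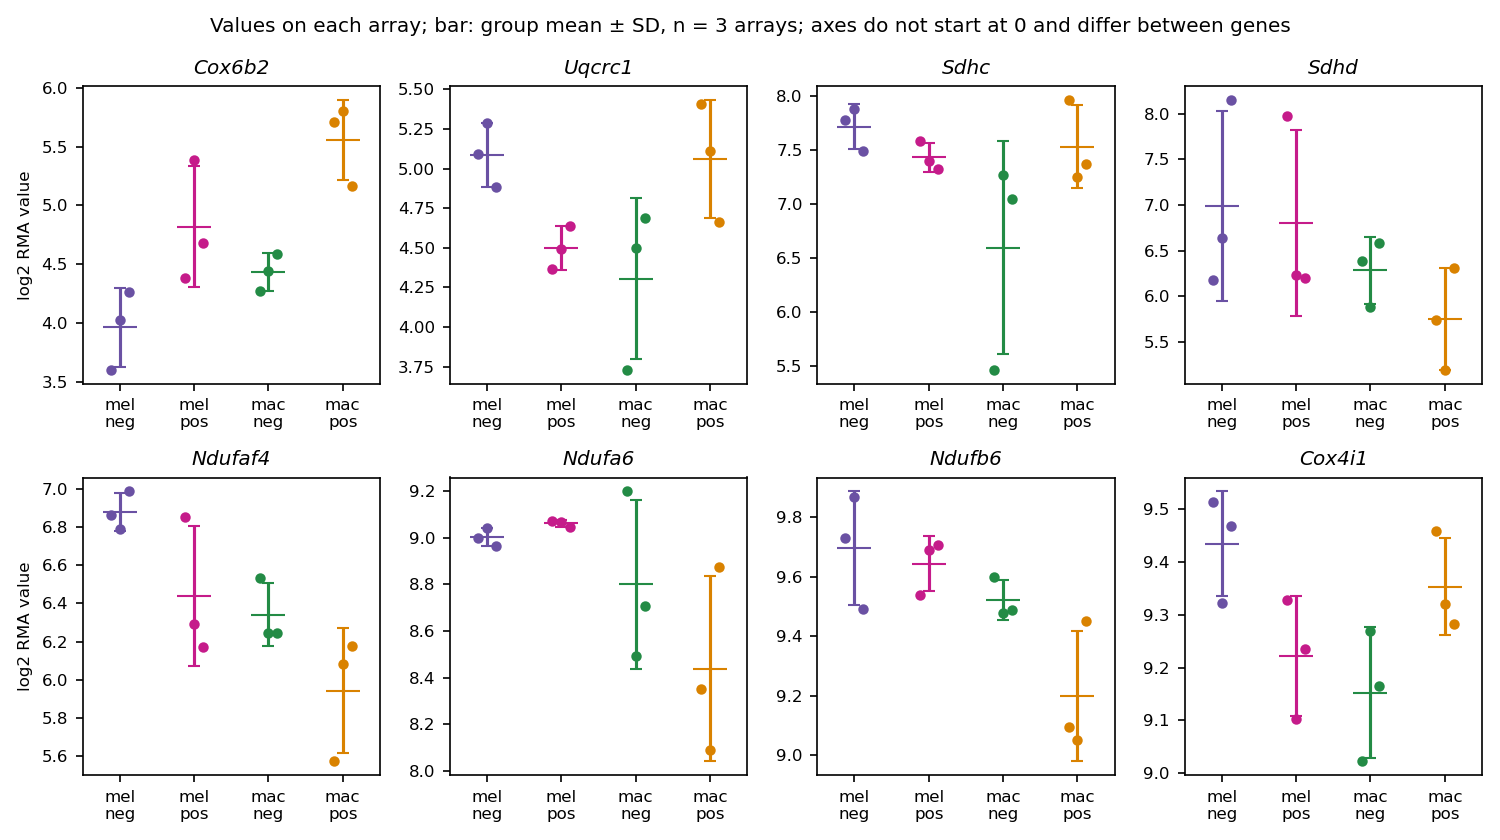
Log2 values on each of the 12 arrays (points) with group means and SD (n = 3 arrays; mel, melanophages; mac, macrophages; neg and pos, MHC-II class) for 8 members. Cox6b2 is higher in the MHC-II-positive group of both cell kinds, Uqcrc1 crosses between the classes, and single arrays set the spread of Sdhc (5.46) and Sdhd (8.15 and 7.98).

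The members were also summarised on each array as the median deviation from each gene's own mean over the 12 arrays. This was 0.11, 0.12 and -0.0001 in MHC-II-negative melanophages, 0.11, 0.03 and -0.04 in MHC-II-positive melanophages, 0.13, -0.11 and -0.04 in MHC-II-negative macrophages and -0.13, -0.13 and 0.03 in MHC-II-positive macrophages. Every pair of groups overlapped, and the highest macrophage array of each group was again one of the 2 far arrays. On the array with the lowest count, MHC-II-negative macrophages replicate 2, 21 of 91 members were above their own mean, and on the highest, MHC-II-negative melanophages replicate 1, 68 were. For the accessory subunits of complex I the group means ran from 0.12 ± 0.0615 (SD) in MHC-II-negative melanophages through 0.05 ± 0.0635 and 0.00440 ± 0.143 to -0.12 ± 0.103 in MHC-II-positive macrophages. The first and the last of these did not overlap, with 0.06 to 0.18 against -0.20 to -0.0013, and each neighbouring pair in this order did. In complex II the order was another one: MHC-II-negative macrophages were lowest, at -0.25 ± 0.162, and MHC-II-negative melanophages highest, at 0.15 ± 0.184.

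**Figure D4:**
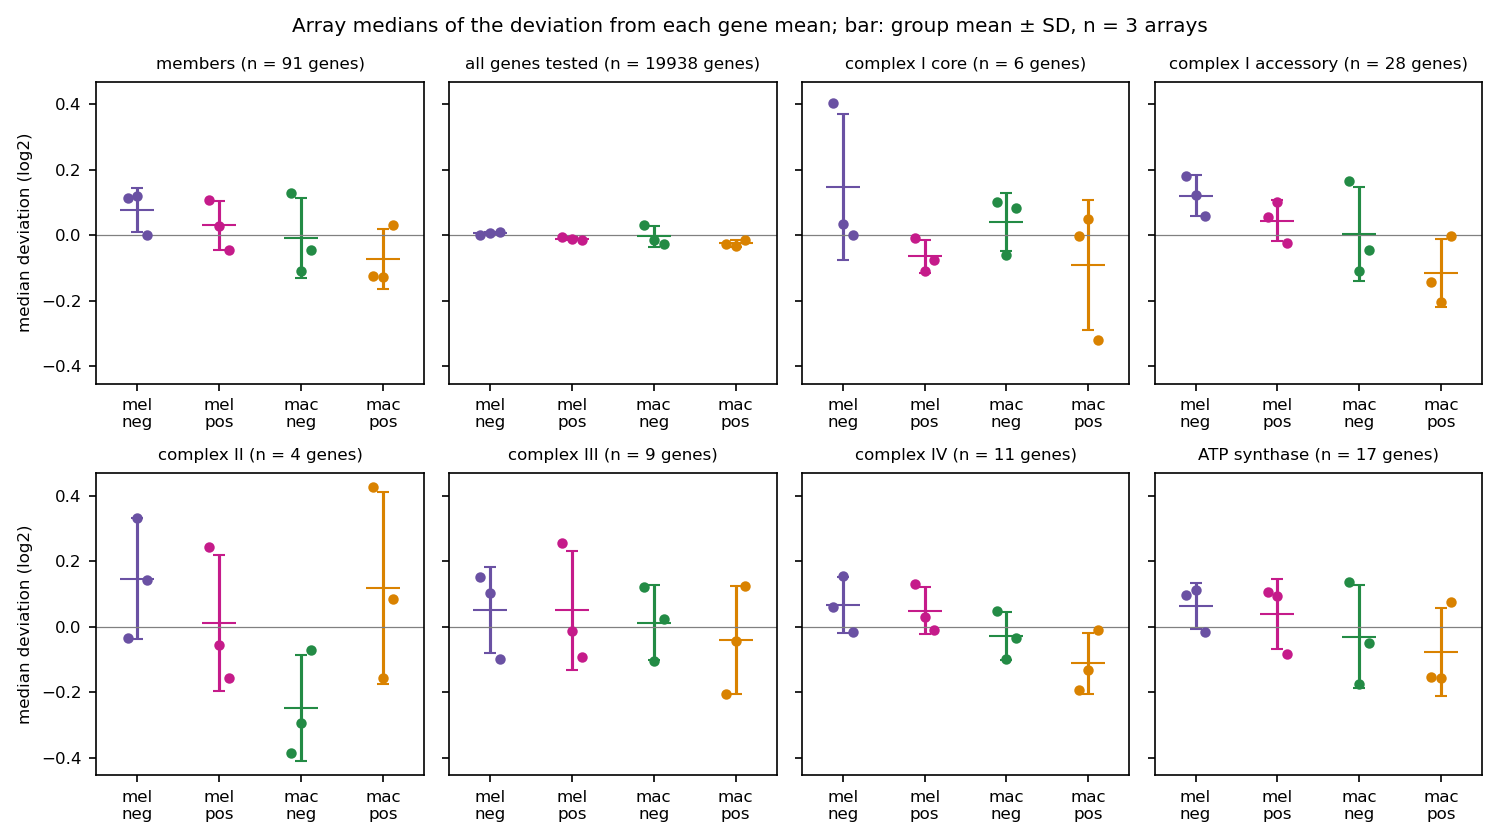
Median deviation (log2) of the genes of each set on each array, with group mean and SD (n = 3 arrays; mel, melanophages; mac, macrophages; neg and pos, MHC-II class). All members ran from -0.13 to 0.13 with overlapping groups, and complex I accessory subunits had their lowest group mean, -0.12, in MHC-II-positive macrophages.

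Other mitochondrial gene lists were read from the same fit, and none of their members was called in either averaged comparison. Between the cell kinds, 54.8% of all genes had estimates above 0, and 4.11% were higher at an unadjusted p under 0.05. Of the 9969 genes at or above the median gene, 49.1% were above 0 and 560 were higher at that p. The mitochondrial ribosome, which translates the mitochondrially encoded subunits, had 55 of 77 estimates above 0 in melanophages over macrophages, with a median of 0.11 and 12 members at an unadjusted p under 0.05, all higher. Its smallest p was that of Mrps33, at 0.42 ± 0.0849 (limma adjusted p = 0.140). The list of assembly factors that do not carry the Nduf prefix or one of the others had 27 of 38 above 0 (median 0.05). It also holds Atpif1, which is the inhibitor of ATP synthase and no assembly factor. Atpif1 had the smallest p of this list, at 0.24 ± 0.0759 (limma adjusted p = 0.447). Protein import had 18 of 29 above 0 (median 0.06), with the outer membrane import subunit Tomm5 at 0.60 ± 0.208 (limma adjusted p = 0.505). Fatty acid oxidation had 10 of 18 (median 0.04), with the electron transfer flavoprotein Etfa at 0.26 ± 0.0795 (adjusted p = 0.401). Krebs cycle and pyruvate oxidation genes had 8 of 18 above 0 (median -0.01), and the pyruvate carrier subunit Mpc1 was at 0.76 ± 0.182 (limma adjusted p = 0.238). Biogenesis regulators (11 of 22) and carriers, uncouplers and electron entry genes (10 of 21) were evenly divided.

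Between the MHC-II classes, the smallest p of these lists was that of the import gene Timm21, at -0.52 ± 0.112 (limma adjusted p = 0.0767). Of the assembly factors outside the rule, the complex III factor Uqcc3 had the smallest, at -0.70 ± 0.178 (adjusted p = 0.159). Among the 38 genes of that list 14 were above 0 and 7 were lower at an unadjusted p under 0.05, and of the 18 Krebs cycle genes 13 were above 0. Of all genes, 40.2% were above 0 and 4.62% were lower at that p. Of the 9969 genes at or above the median gene, 49.6% were above 0 and 572 were lower. The mitochondrial ribosome was split, with 38 of 77 above 0. Of the mitochondrially encoded subunits 2 could be matched, COX2 at 0.10 ± 0.0829 and ND3 at 0.08 in melanophages over macrophages, and ND3 at -0.16 ± 0.0670 (adjusted p = 0.483) between the classes.

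Promoter sequences from RefSeq (GRCm38.p6) were available for 74 of the 91 genes, in 79 windows of 300 bases, of which 250 lie before the start and 50 after it. The NRF1 motif GCGCATGCG, on either strand, was in 11 of the 79 member windows (13.9%) and in 1.75% of all 32851 windows. The ETS motif CCGGAAG, on either strand, was in 18 (22.8%) and in 8.86% of all windows, and the YY1 motif AAGATGGCG in 7 (8.86%) and in 1.4%. An ETS match that ends in AAG can overlap the start of a YY1 match. The letters were chosen after these windows had been seen, so the shares are not an independent measure of enrichment. Of the members with the smallest p between the cell kinds, Ndufaf4 held the NRF1 motif and Ndufb6 the ETS motif before the start, at chr4:24897833-24898082 (plus strand) and chr4:40279422-40279671 (minus strand), and these windows are shown with the match in capitals. Ndufb7, whose estimate was below 0, also held an ETS match before its start, and those parts of the windows of Ndufb8, Ndufa1, Ndufa6, Ndufc1, Ndufc2 and Cox7a2 held none of the 3 motifs. The full window of Ndufc1, with the 50 bases after the start, did hold a YY1 match. A match describes these letters and is not a measured binding site.
Ndufaf4: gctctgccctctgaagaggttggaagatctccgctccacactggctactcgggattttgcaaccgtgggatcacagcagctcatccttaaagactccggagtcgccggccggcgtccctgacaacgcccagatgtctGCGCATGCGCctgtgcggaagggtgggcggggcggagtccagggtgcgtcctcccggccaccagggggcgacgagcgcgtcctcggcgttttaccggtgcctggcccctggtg
Ndufb6: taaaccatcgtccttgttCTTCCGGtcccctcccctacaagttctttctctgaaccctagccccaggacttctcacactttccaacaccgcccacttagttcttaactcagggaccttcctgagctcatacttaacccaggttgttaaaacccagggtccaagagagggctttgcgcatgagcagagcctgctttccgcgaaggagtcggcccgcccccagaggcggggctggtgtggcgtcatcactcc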

How the data were processed

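Expression was measured on 12 microarrays, 3 for each of 4 groups. The deposited log2 values are RMA output of oligo, an R package, as the submitters' processing notes record, from RNA amplified by whole-transcriptome amplification, per the labels' protocols. No version or setting is given in the sources used here, and the number of arrays limits the precision. Symbols came from the platform annotation of the deposited table: 21789 of 35556 probe sets had 1 symbol, 1621 had several and 12146 none here. All 91 symbols are in the RefSeq table, and 18 members had more than 1 probe set, whose signs differed for 4 of 18 in each averaged comparison.

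A model with 1 mean per group was fitted in limma 3.58.1 (lmFit, eBayes, R 4.3.3) over all 12 arrays and 19938 genes, with 8 residual and 2.44 prior degrees of freedom, two-sided tests and Benjamini-Hochberg adjustment over all genes. On data simulated with the spread of these arrays, the fit called 77% of genes changed by 1 on the log2 scale for the cell kinds. It called 99% of genes changed by 2, with 7 false calls. For the MHC-II classes these shares were 85% and 99%, with 14 false calls. The changed genes were all at or above the median gene and many changed at once, with noise drawn independently for each gene. These shares may therefore not hold for a single changed member on the real arrays. No test was run on a list. Promoter motifs were searched as exact letters chosen after the windows had been seen, the NRF1 and YY1 motifs in a form 1 letter shorter than first tried. Members, lists and alternatives were chosen with earlier results of these data known.

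Named are the called members, those with the smallest p (8 in each direction for an averaged comparison and 4 for the others), the largest difference of each complex, all Sdh genes, Cyc1, Cycs and the paralogues. Members without overlap and the Uqcrb, Atp5mpl, Atp5d and Ndufaf2 values were singled out after the values were seen. Alternatives were 2 filters on dim genes, 3 normalizations, 2 treatments of probe sets, 2 variance models, a block, smaller sample sets and leaving out arrays. The labels give no replicate number; codes in the titles form 3 runs with 1 array of each group. Deviations of arrays in a run correlated at -0.0163 on average (18 pairs, -0.248 to 0.27), so the runs were not taken to pair samples.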

Additional observations from a re-analysis of the deposited data

Results flagged for a closer look

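Uqcrc1 stood out because the cell kinds differed in opposite directions in the 2 MHC-II classes, with no overlap of arrays in either. Melanophages minus macrophages was 0.78 ± 0.248 in MHC-II-negative cells and -0.56 ± 0.248 in MHC-II-positive cells (log2, SE of the fit). The difference between these, tested as an interaction, was -1.35 ± 0.351, with a limma p of 0.00301 and an adjusted p that rounds to 1.0. In the positive class the highest melanophage array, 4.64, and the lowest macrophage array, 4.67, were close together. Over all genes 77 (0.386%) had arrays in such a crossed order. The lowest macrophage value of the negative class came from one of the 2 far arrays. On leaving out each array, the difference ran from 0.495 to 0.976 in the negative class and from -0.762 to -0.389 in the positive class.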

How the results depend on the processing

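In the 22 alternatives with one value per gene the members' median less that of all genes kept its sign for the cell kinds (0.05 to 0.11 averaged over class, 62 to 74 members above 0), and it changed sign in some alternatives for the MHC-II classes (-0.07 to 0.01). With the 2 far macrophage arrays left out, the count of called members was 2 for the cell kinds (117 genes in all, against 24), 1 for the cell kinds in the MHC-II-positive class (Ndufa6, 0.84 ± 0.0993, adjusted p = 0.0376) and 0 for the MHC-II classes, where Cox6b2 had an adjusted p of 0.0654 by limma. That fit has fewer samples, its arrays were picked from these same data, and the cause was not tested. Leaving out each array in turn gave 0 to 1 called members for the MHC-II classes and 1 to 30 called genes for the cell kinds. The median of the tissue-restricted isoforms was -0.176 for the cell kinds with the stricter filter on dim genes, which drops isoforms, and for the MHC-II classes 0.0662 without the 2 far arrays and -0.0947 to 0.0844 on leaving out each array. On leaving out each array, medians near 0 also changed sign for the complex I core between the cell kinds (-0.109 to 0.083) and, between the MHC-II classes, for complex III (-0.0472 to 0.0593), complex IV (-0.0698 to 0.00807) and ATP synthase (-0.0366 to 0.0467). The isoform median between the cell kinds did so too (-0.0425 to 0.0322). Cycs, at -0.00492 for the cell kinds, changed sign to 0.0087 with the mean of all probe sets, 0.0363 with array weights and 0.11 without the far arrays, and ran from -0.0744 to 0.0651 on leaving out each array. With the mean of all probe sets it also changed sign for the MHC-II classes (-0.0447, and -0.1 in melanophages). The Cycs probe set with a mean of 3.159, near the array medians, had a class difference of -0.296 ± 0.141. The brighter probe sets of this gene had 0.112 ± 0.108 and 0.0493 ± 0.132. The runs of title codes as a replicate block changed no call of a member: Cox6b2 was called with an adjusted p of 0.0442 by limma, and 18 genes were called for the cell kinds. Of 1865 values of single members, 1841 kept direction and side of the threshold. Nearly all were of members not called in the main fit, for which staying uncalled counts as keeping the side. The call of Cox6b2 between the MHC-II classes was lost in 11 of 23 alternatives. With 3 arrays a group, the median SE of a member was 0.13 for an averaged comparison, and values near the array medians may understate a difference.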
